A study of Mus musculus with 24 samples.

Results

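Genes of the mouse placenta were followed through 24 RNA-seq libraries of differentiated embryonic stem (ES) cells. The genes were the rows of the exon table whose symbol begins with Prl or Psg and a digit, together with Tpbpa, Tpbpb, Gcm1, Hand1, Syna, Synb, Ctsj and Ctsq. This choice took 47 rows of 46 symbols, because Synb is listed at 2 loci, out of 33079 rows in all. Of the 47 rows, 28 had a mean above 0.5 RPM (reads scaled to the library total alone, which is RPKM multiplied by the exonic length in kb) over the 12 time points of WT or of KO cells, 25 of them in WT, 27 in KO and 24 in both. WT cells carried the Per2::Luciferase knock-in, a reporter of the clock protein PER2, and KO cells carried the same knock-in with Rev-erba (Nr1d1) and Rev-erbb (Nr1d2) made deficient by CRISPR deletion of an exon of each gene. All cells were grown as embryoid bodies, given 100 nM dexamethasone at differentiation day 28 and harvested at 12 time points, 4 h apart and the last at 56 h, and the study asked how loss of both REV-ERBs changes gene expression and its daily rhythm. Each library held RNA pooled from 3 embryoid bodies, and there was 1 library for each genotype and time point. The comparison of genotypes therefore set 12 time points against 12, and its p-values measure the spread between these libraries, which holds change over time as well as differences between pools.

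Mouse trophoblast, the outer cell lineage of the embryo that builds the placenta, secretes a large family of hormones related to pituitary prolactin, and a second family of pregnancy-specific glycoproteins (PSG) that belong to the immunoglobulin superfamily. Trophoblast giant cells are known for placental lactogens, proliferins and cysteine proteases such as cathepsins J and Q, spongiotrophoblast for Tpbpa and many PSGs, and the syncytiotrophoblast of the labyrinth for the fusion proteins syncytin A and B and the factor Gcm1. REV-ERBα and REV-ERBβ, members of the nuclear receptor family, are repressors that bind the sequence AGGTCA after an A/T-rich stretch and belong to a feedback loop of the circadian clock.

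The median library total was 17424723.5 fragments, and from 6183500.5 to 10287969 fragments lay on exons. Each library correlated with the mean of all other libraries of both genotypes at r of 0.984 or more across genes, with the lowest value in WT at 36 h. The gene-level values of the targeted genes were not lower in the libraries labelled KO: mean RPKM was 5.04 ± 1.26 (SD, n = 12) in WT and 6.39 ± 2.67 in KO for Nr1d1, and 1.85 ± 0.746 and 3.22 ± 1.34 for Nr1d2. These values sum exons outside the deleted ones, so they do not check the labels. The labels give the cells only as differentiated ES cells, and in bulk RNA of this kind fewer cells of a type and less RNA per cell cannot be told apart.

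Cathepsins, Tpbp genes and prolactin-family hormones supplied most of the placental RNA. Of the syncytiotrophoblast markers among the members, Gcm1 and Synb were at or near 0 and Syna was low. Both cathepsins, both Tpbp genes, 12 of 25 prolactin-family genes and 10 of 13 PSG genes were above 0.5 RPM, but only 1 of 3 syncytin rows (Syna) and 1 of 2 transcription factors (Hand1). Gcm1, which directs branching of the labyrinth, had 5.0 fragments in all 12 WT libraries together and 8.0 in all KO libraries, or means of 0.0226 and 0.0389 RPM. The Synb row at chr14:69508648-69512549 had 0.5 fragment in WT at 52 h and no other fragment, and the second row, at chr14:69290398-69294299, was at 0 in all 24 libraries. A count of 0 over 12 libraries allows up to 0.0142 RPM in WT and 0.0143 RPM in KO, for counting error only. Of the windows of 101 bases in the Synb transcript, 73.8% occur identically in another annotated gene, Gm27179, and the authors removed alignments with a mapping quality under 10, so that a low Synb value is uncertain. By these markers the libraries held giant-cell and spongiotrophoblast transcripts. Of the syncytiotrophoblast markers among the members, Syna alone passed the threshold, in KO with 0.851 RPM and not in WT with 0.471. Outside the members, Dlx3, Slc16a1 and Slc16a3, from a list of labyrinth and syncytiotrophoblast genes, were above it. Their mean RPKM was 0.644, 10.4 and 17.1 in WT and 0.804, 10.4 and 23.6 in KO. Slc16a3 is used by many tissues, so its level alone does not mark these cells.

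The placental lactogens of giant cells were unequal. Prl3b1, placental lactogen II, had mean RPKM of 18.1 ± 11.2 in WT and 24.8 ± 11.8 in KO. Prl3d1, placental lactogen I, which giant cells make earlier in gestation, had 0.244 ± 0.262 and 0.269 ± 0.342. The ratio of the mean RPKM of Prl3b1 to that of Prl3d1 was 74.0 in WT and 92.0 in KO. The near-copies Prl3d2 and Prl3d3 stayed at or under 2.0 fragments in every library. Windows of 101 bases were shared between the 3 Prl3d genes for 26.4% of the Prl3d1, 48.3% of the Prl3d2 and 41.9% of the Prl3d3 transcript, so that reads from them may have been lost to the mapping filter.

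The other prolactin-family genes under 0.5 RPM ran from faint to near 0. The lowest, Prl3c1, had 1.0 fragment in all WT libraries together and 1.5 in all KO libraries. Prl8a2, the decidual prolactin-related protein, reached 0.448 RPM in WT and 0.391 in KO, Prl7a2 reached 0.419 and 0.317, and Prl7a1 0.156 and 0.145. Prl8a8 had 0.158 RPM in WT and 0.304 in KO, and its highest library was KO at 48 h with 39.0 fragments. Among the PSG genes, Psg18 had 0.398 RPM in WT and 0.455 in KO, Psg19 0.315 and 0.361, and Psg25 0.216 and 0.218.

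Nearly all members lie in a few gene clusters, in coordinates of GRCm38 (mm10), the build of the files. On chromosome 13, 22 prolactin-family rows lie at chr13:27094189-28151595, of which 9 were above 0.5 RPM. Prl2c3, Prl2c2 and Prl2c5 lie together at chr13:12790818-13191925, and Tpbpb, Tpbpa, Ctsj and Ctsq at chr13:60901295-61040597, with all of these above the threshold. The 13 PSG genes lie at chr7:17074040-18821591. Hand1 is alone at chr11:57828713-57832147 and Syna at chr5:134557254-134560171, both on the minus strand.

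The 250 bases before the start of several of these genes are near-copies of each other, and the sequences of RefSeq for GRCm38.p6 are given for 6 genes on which the later results turn. Capitals mark AGATAA (the core of a site for GATA factors), TGACTCA (a site for AP-1) and AGGTCA (the half-site of many nuclear receptors), each on either strand, and no base was shared by motifs of different kinds in these windows. Prl2c3 (chr13:12800080-12800329, minus strand) and Prl7d1 (chr13:27716738-27716987, minus strand) are shown because their windows are alike although the genes lie in different clusters. Prl3b1 (chr13:27242180-27242429, plus strand) is shown for its pair of AGGTCA half-sites on the opposite strand. Tpbpa (chr13:60941937-60942186, minus strand) is the spongiotrophoblast marker, and Psg21 (chr7:18656726-18656975, minus strand) and Psg23 (chr7:18616502-18616751, minus strand) are the PSG genes that rose with time in KO.
Prl2c3: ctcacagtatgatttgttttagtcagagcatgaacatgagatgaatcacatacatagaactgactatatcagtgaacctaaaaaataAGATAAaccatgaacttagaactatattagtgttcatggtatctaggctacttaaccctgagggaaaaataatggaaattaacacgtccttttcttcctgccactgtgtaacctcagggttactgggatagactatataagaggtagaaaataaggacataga
Prl7d1: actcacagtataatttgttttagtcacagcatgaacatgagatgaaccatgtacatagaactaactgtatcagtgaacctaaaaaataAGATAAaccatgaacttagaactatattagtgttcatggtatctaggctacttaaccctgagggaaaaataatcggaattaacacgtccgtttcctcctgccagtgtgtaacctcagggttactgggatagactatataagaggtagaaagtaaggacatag
Prl3b1: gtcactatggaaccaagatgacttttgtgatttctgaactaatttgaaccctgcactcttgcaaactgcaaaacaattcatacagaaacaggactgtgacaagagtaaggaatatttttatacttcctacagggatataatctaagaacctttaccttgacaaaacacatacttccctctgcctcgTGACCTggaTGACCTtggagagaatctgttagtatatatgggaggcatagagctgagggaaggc
Tpbpa: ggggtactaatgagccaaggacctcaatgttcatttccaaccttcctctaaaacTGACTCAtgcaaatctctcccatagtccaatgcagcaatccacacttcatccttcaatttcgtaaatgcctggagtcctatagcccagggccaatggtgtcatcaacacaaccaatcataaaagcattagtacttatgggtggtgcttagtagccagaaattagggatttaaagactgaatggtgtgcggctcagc
Psg21: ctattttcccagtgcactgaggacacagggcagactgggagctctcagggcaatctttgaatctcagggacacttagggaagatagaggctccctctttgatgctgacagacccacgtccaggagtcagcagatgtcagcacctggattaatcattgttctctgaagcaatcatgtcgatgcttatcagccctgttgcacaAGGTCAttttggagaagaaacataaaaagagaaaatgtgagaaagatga
Psg23: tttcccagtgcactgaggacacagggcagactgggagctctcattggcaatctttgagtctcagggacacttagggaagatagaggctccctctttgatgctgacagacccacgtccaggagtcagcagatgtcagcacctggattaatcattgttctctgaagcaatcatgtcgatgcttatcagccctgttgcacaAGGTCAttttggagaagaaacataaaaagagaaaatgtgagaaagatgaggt

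By edit distance the windows of Prl2c3 and Prl7d1 were 94% identical, those of Prl2c3 and Prl2c5 96%, those of Psg21 and Psg23 96% and those of Tpbpa and Tpbpb 95.2%. RefSeq windows were matched for 37 of the 47 rows, and for 17385 genes of the whole table. Hand1 was among the rows without one. AGATAA was found in 9 of the 37 windows (24.3%) and in 8.75% of the 17385, and of the 9, 8 were prolactin-family genes. TGACTCA was found in 24.3% of member windows and 4.08% of all windows, and AGGTCA in 24.3% and 12.6%. The longer TAGGTCA, which contains AGGTCA and is a short form of the REV-ERB element, was in 0 of 37 member windows and in 2.03% of all windows. Near-copies are counted separately in these shares, and a match in letters does not show that a factor binds there.

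Placental transcripts differed severalfold between libraries of the same genotype, and most members rose and fell together. Their summed level was lowest at 93.4 RPM in WT at 52 h and highest at 640 RPM in WT at 40 h, with a WT median of 240 RPM. In KO it was lowest at 126 RPM at 24 h and highest at 608 RPM at 40 h, with a median of 291 RPM. The ranges of the genotypes overlapped over most of their length, and the 5 highest libraries were WT at 16 and 40 h and KO at 40, 48 and 56 h, from 428 RPM up. The 8 lowest, at 136 RPM or less, were WT at 24, 28, 36, 44 and 52 h and KO at 24, 28 and 32 h. Means were 270 ± 194 RPM in WT and 304 ± 157 RPM in KO (SD, n = 12 each).

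**Figure D1:**
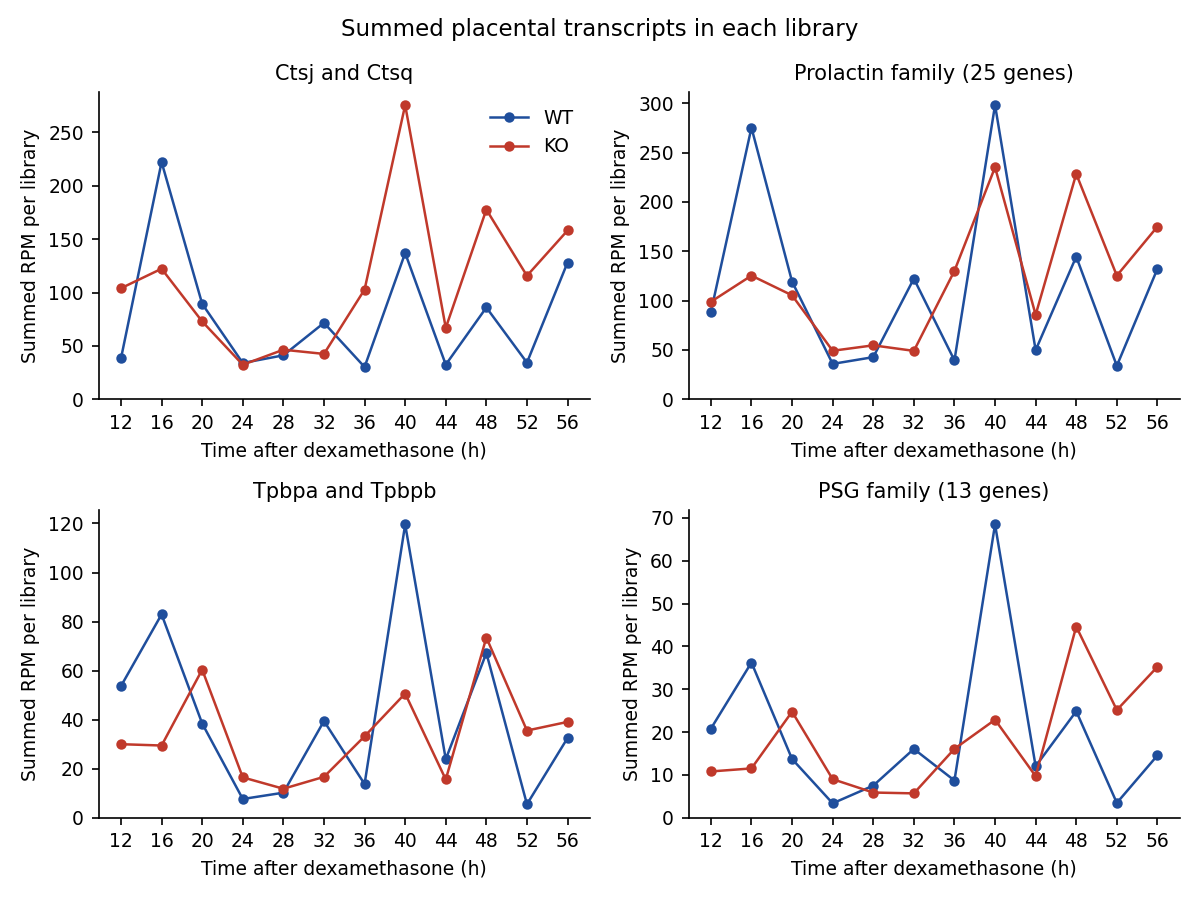
Summed RPM per library (vertical axes, linear from 0) against hours after dexamethasone for the cathepsins, the prolactin family, the Tpbp genes and the PSG family, with 1 point per library, WT in blue and KO in red. WT peaks at 16 and 40 h appear in all 4 panels, and KO is highest at 40 h for cathepsins and prolactins and at 48 h for Tpbp and PSG genes.

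Among the 28 members above the threshold, WT at 40 h was the highest WT library for 14 and WT at 16 h for 9. In KO, the library of 48 h was highest for 14 members and that of 40 h for 10. The lowest WT library was 52 h for 10 members and 24 h for 8, and the lowest KO library 32 h for 10 and 24 or 28 h for 7 each. The SD of log2(RPKM + 0.1) over the 12 WT libraries had a median of 1.12 over the members and of 0.139 over all 15112 genes tested. In both genotypes 26 of 28 members lay above the 95th percentile of all genes, the exceptions being Hand1 (SD 0.14 in WT and 0.18 in KO) and Syna (0.26 and 0.40). As a description over 12 libraries, in which the values of a library share its pool and depth, the median Spearman rho of the 378 pairs of members was 0.703 in WT and 0.734 in KO.

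**Figure D2:**
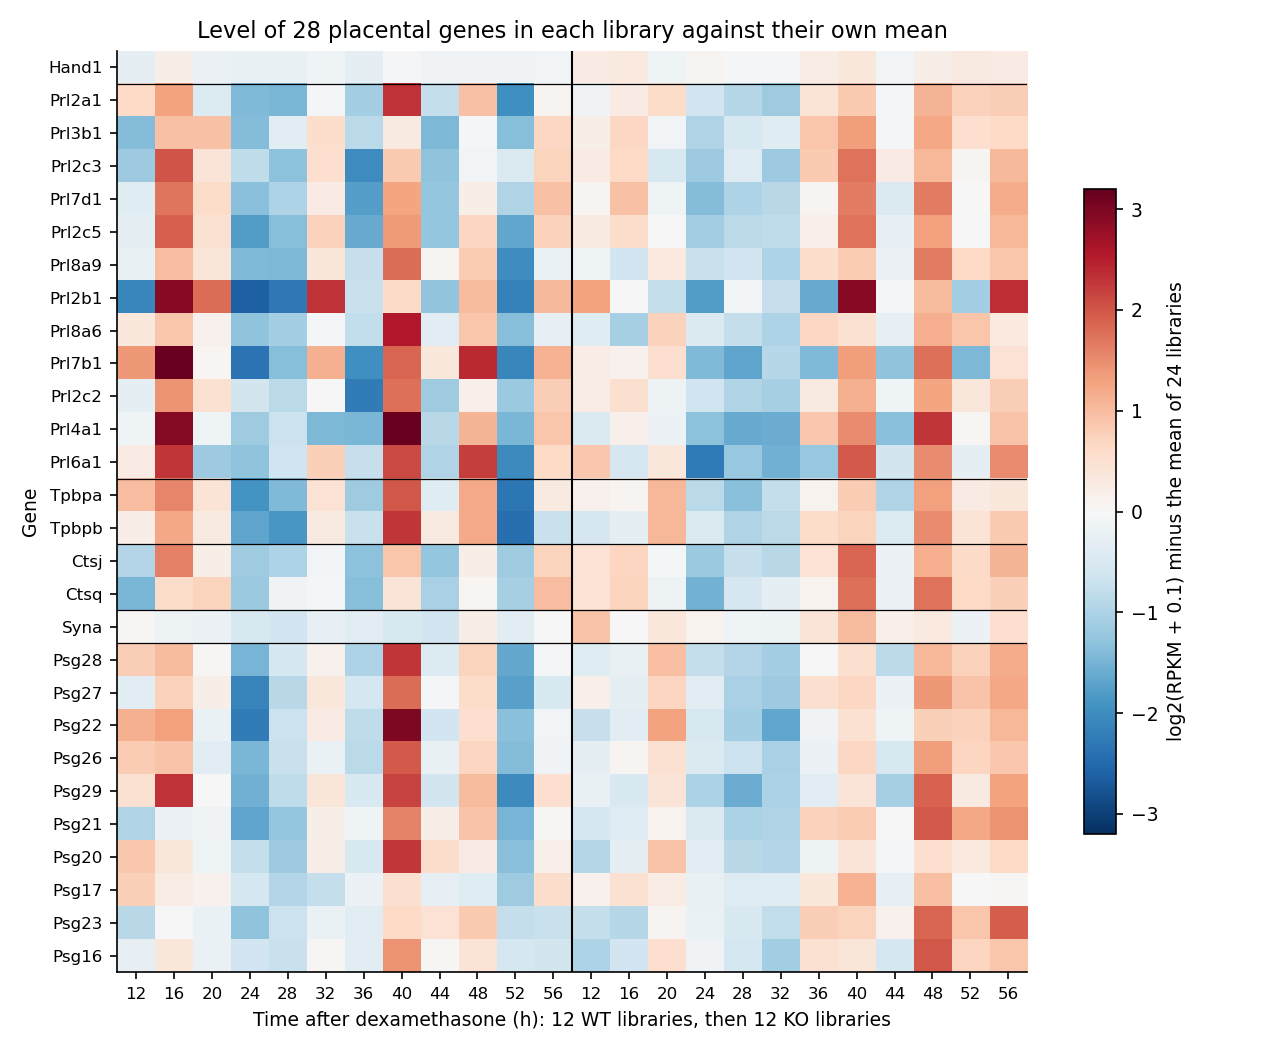
Colour gives log2(RPKM + 0.1) of each of the 28 genes (rows, grouped by role) minus its own mean over 24 libraries, for the 12 WT and then the 12 KO libraries in order of time (columns). The red columns of WT at 16 and 40 h and KO at 40, 48 and 56 h run through nearly all rows, and the rows of Hand1 and Syna stay pale.

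Markers of yolk sac endoderm also varied between pools, and their high libraries were partly the same. The summed level of Afp, Ttr, Apoa1, Apoa4 and Rbp4 ranged from 156 to 2056 RPM in WT and from 147 to 1910 RPM in KO. Of the 5 libraries with the highest placental level, WT at 16 h (2056 RPM) and KO at 56 h (1701 RPM) were high in yolk sac markers too, while WT at 40 h had 287 RPM, KO at 40 h 202 RPM and KO at 48 h 252 RPM. Two-way overlap was thus partial: KO at 16 h (1910 RPM) and WT at 36 h (1433 RPM) were also high in yolk sac markers, with placental sums of 310 and 106 RPM. The part of yolk sac cells in the placental values was not tested.

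Of the 2 cathepsins, Ctsj was the most abundant of all members, while Ctsq ranked 9 by RPM. Together they had 78.8 RPM in WT and 110 in KO, below the prolactin family with 115 and 122. Ctsj, a cysteine protease of the rodent placenta, supplied 29.8% of all member RPM. Its RPKM was lowest at 21.9, with a median of 39.9 and a highest value of 167 in WT, and 23.7, 75.0 and 199 in KO. Its peak library came at 16 h for WT but at 40 h for KO, and the ranges overlapped. Ctsq, a protease of giant cells that line maternal blood sinusoids, ran from 1.88 through a median of 5.04 to 10.8 RPKM in WT and from 1.83 through 6.58 to 18.3 in KO. Per length, Ctsj exceeded Ctsq in every library, with a median ratio of 10.3 in WT and 10.2 in KO.

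Of the prolactin family, Prl2a1 had the highest level. It ran from 8.62 RPKM at 52 h through a median of 29.1 to 169 at 40 h in WT, and from 15.5 at 32 h through 43.3 to 72.2 at 48 h in KO. The WT libraries of 16 and 40 h lay above every KO library, and 3 WT libraries lay below all of KO. Prl3b1 followed, from 6.65 through a median of 15.7 to 35.1 RPKM in WT and from 9.26 through 23.6 to 46.0 in KO, and its WT libraries of 16 and 20 h were level, with 34.9 and 35.1.

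The proliferins came next. Prl2c3 had 14.2 ± 12.9 RPKM in WT and 16.8 ± 10.3 in KO, and Prl2c5 13.4 ± 11.5 and 14.3 ± 9.32. Prl7d1, the proliferin-related protein, known to restrain blood vessel growth, had 13.2 ± 10.4 and 15.3 ± 10.9. These 3 genes with like upstream windows had like levels, with median ratios near 1, although Prl7d1 itself varied 11.4-fold over the 24 libraries. Like windows did not go with like levels elsewhere: the median ratio was 2.98 for Tpbpa to Tpbpb and 2.83 for Psg21 to Psg23. The ratio of Prl2c5 to Prl7d1 ran from 0.587 to 1.37, that of Prl2c3 to Prl7d1 from 0.648 to 1.89 and that of Prl2c3 to Prl2c5 from 0.631 to 2.66. Prl2c2, proliferin itself, had 2.48 ± 2.07 RPKM in WT and 2.55 ± 1.33 in KO. Its transcript shares 65.9% of its windows of 101 bases with other genes, Prl2c3 shares 62.0% and Prl2c5 8.47%, so the levels of Prl2c2 and Prl2c3 are uncertain and may be too low.

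The remaining members of the family were lower. Prl8a9 had 7.76 ± 5.99 RPKM in WT and 8.34 ± 4.99 in KO, and Prl8a6 had 3.35 ± 3.81 and 2.83 ± 1.49. Prl2b1 had 3.49 ± 4.26 and 3.33 ± 4.15, and it spanned 67.8-fold between its lowest and highest library. Prl7b1, which invasive trophoblast expresses, had 3.83 ± 4.35 in WT and 1.77 ± 1.63 in KO. Prl4a1 had 1.31 ± 2.00 and 0.828 ± 0.897, and Prl6a1 1.03 ± 1.14 and 0.771 ± 0.785. For Prl2b1, Prl7b1, Prl4a1 and Prl6a1, and for Prl8a6 in WT, the SD was near or above the mean.

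Tpbpa, the defining transcript of spongiotrophoblast, ran from 3.52 RPKM at 52 h through a median of 23.1 to 72.1 at 40 h in WT. In KO it ran from 7.11 at 28 h through 19.7 to 44.8 at 48 h. The WT range enclosed the KO range. Tpbpb, its neighbour, had 8.22 ± 8.07 RPKM in WT and 7.67 ± 4.47 in KO, and the ratio of Tpbpa to Tpbpb stayed between 1.87 and 6.03.

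The PSG genes were lower per length than the leading prolactins. Psg28 had 1.92 ± 1.89 RPKM in WT and 1.70 ± 1.02 in KO, Psg27 1.34 ± 1.12 and 1.64 ± 0.922, and Psg22, the PSG known from giant cells, 1.38 ± 1.91 and 0.967 ± 0.623. Psg22 reached 7.10 RPKM in WT at 40 h and at most 2.14 in KO. Psg29 had 0.846 ± 0.920 and 0.599 ± 0.580, Psg26 0.740 ± 0.688 and 0.725 ± 0.424, and Psg20 0.404 ± 0.446 and 0.298 ± 0.171. Psg17, a ligand of the membrane protein CD9, had 0.236 ± 0.142 and 0.313 ± 0.157, and Psg16 0.124 ± 0.126 and 0.177 ± 0.207. Of these, Psg16, Psg17, Psg20 and Psg23 rest on means of 6.25 to 15.0 fragments per library.

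The comparison of genotypes asks whether the level of placental genes differed between KO and WT cells. The paper describes the double knockout as a cell line grown from picked colonies. Loss of the REV-ERBs and other differences between this line and WT therefore cannot be told apart. Of the 28 members tested, Hand1 and Syna passed the threshold in limma on log2(RPKM + 0.1) (Benjamini-Hochberg adjusted p under 0.05 over 15112 genes), and both were higher in KO. Among all genes tested, 26.3% passed and 11.5% passed with a higher level in KO, so that 2 of 28 is a smaller share than the background. Of the 28, Syna, Psg17 and Psg23 were above 0.5 RPM only in KO and Psg20 only in WT, so these 4 were tested through the group in which they are higher. None of the 12 prolactin-family, 10 PSG, 2 cathepsin and 2 Tpbp genes passed, and none of these had an unadjusted p under 0.05, which 38.0% of all genes had. The median log2 difference was 0.27 over the members, 22 of 28 being higher in KO, and -0.01 over all genes, 6933 of 15112 being higher. By mean RPKM, 15 of 28 were higher in KO, because 7 members had a higher mean in WT although their mean log2 value was higher in KO.

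Hand1, a basic helix-loop-helix factor that drives giant-cell formation and also acts in the heart and mesoderm, had RPKM of 7.18 to 10.2 in WT with a median of 8.08, and 8.10 to 11.5 in KO with a median of 10.3. KO was above WT at 12 of 12 time points. All WT libraries but that of 16 h were at or below 8.63, and 6 KO libraries were above every WT library. The difference was 0.28 on the log2 scale (SE 0.06, 95% interval 0.15 to 0.40, limma adjusted p = 0.00172). Because Hand1 is shared with other tissues, its partners and heart genes were counted too. Of the 11 rows of that list, 4 were higher and 3 lower in KO, against 11.5% and 14.7% of all genes. The higher ones were Myh6, Nkx2-5 and the atrial peptide gene Nppa, which is listed in 2 rows with log2 differences of 1.81 and 1.54, and the lower ones Tnnt2, Gata4 and Tbx20. The summed level ranged from 369 to 419 RPM in WT and from 347 to 441 RPM in KO. The share of heart or mesoderm cells in the Hand1 value was not tested.

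Syna, the syncytin A gene, whose envelope protein fuses trophoblast cells into syncytiotrophoblast, had 0.104 to 0.256 RPKM in WT with a median of 0.154. In KO it had 0.172 to 0.524 RPKM with a median of 0.266. KO was above WT at 12 of 12 time points, by little at 16, 32, 48 and 52 h, and 6 KO libraries were above every WT library. The log2 difference was 0.55 (SE 0.14, 95% interval 0.27 to 0.83, limma adjusted p = 0.00388). Syna entered this test through KO alone, and with no filter on low values its limma adjusted p was 0.00642. These levels rest on few reads, with 8.25 fragments in the mean WT library and 14.5 in the mean KO library. A transcript of 0.027 kb, AB346669, lies antisense within the gene at chr5:134559573-134559600, with mean RPM of 0.00424 in WT and 0.0195 in KO against 0.471 and 0.851 for Syna, and the library kit that the labels name does not mark strand, so reads of this transcript and of Syna cannot be told apart there.

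**Figure D3:**
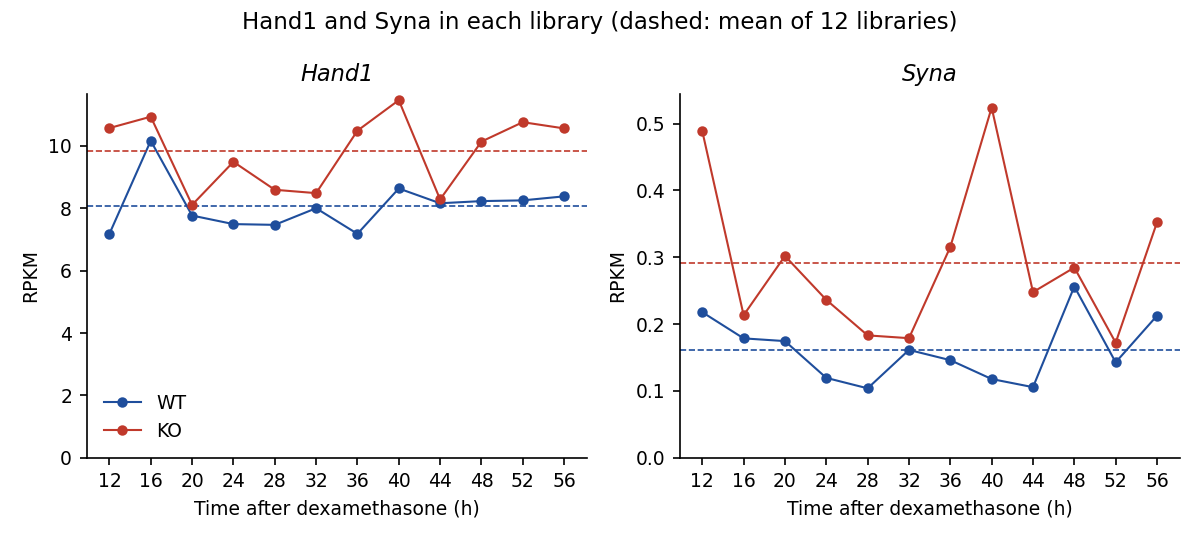
RPKM of Hand1 and Syna (vertical axes, linear from 0) in each library against hours after dexamethasone, WT in blue and KO in red, with the mean of 12 libraries dashed. The KO points lie above the WT points of the same hour throughout, with small gaps for Hand1 at 20 and 44 h.

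For the members that did not pass, the intervals were wide. The log2 difference was 0.54 for Ctsj (95% interval -0.20 to 1.29, limma adjusted p = 0.282), 0.58 for Ctsq (-0.13 to 1.29) and 0.58 for Prl3b1 (-0.08 to 1.24, limma adjusted p = 0.191). It was 0.32 for Prl2a1 (-0.49 to 1.13) and 0.04 for Tpbpa (-0.87 to 0.95). The lowest value was -0.61 for Prl7b1 (-1.84 to 0.61). A p that misses the threshold does not show that these genes had the same level in both genotypes.

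**Figure D4:**
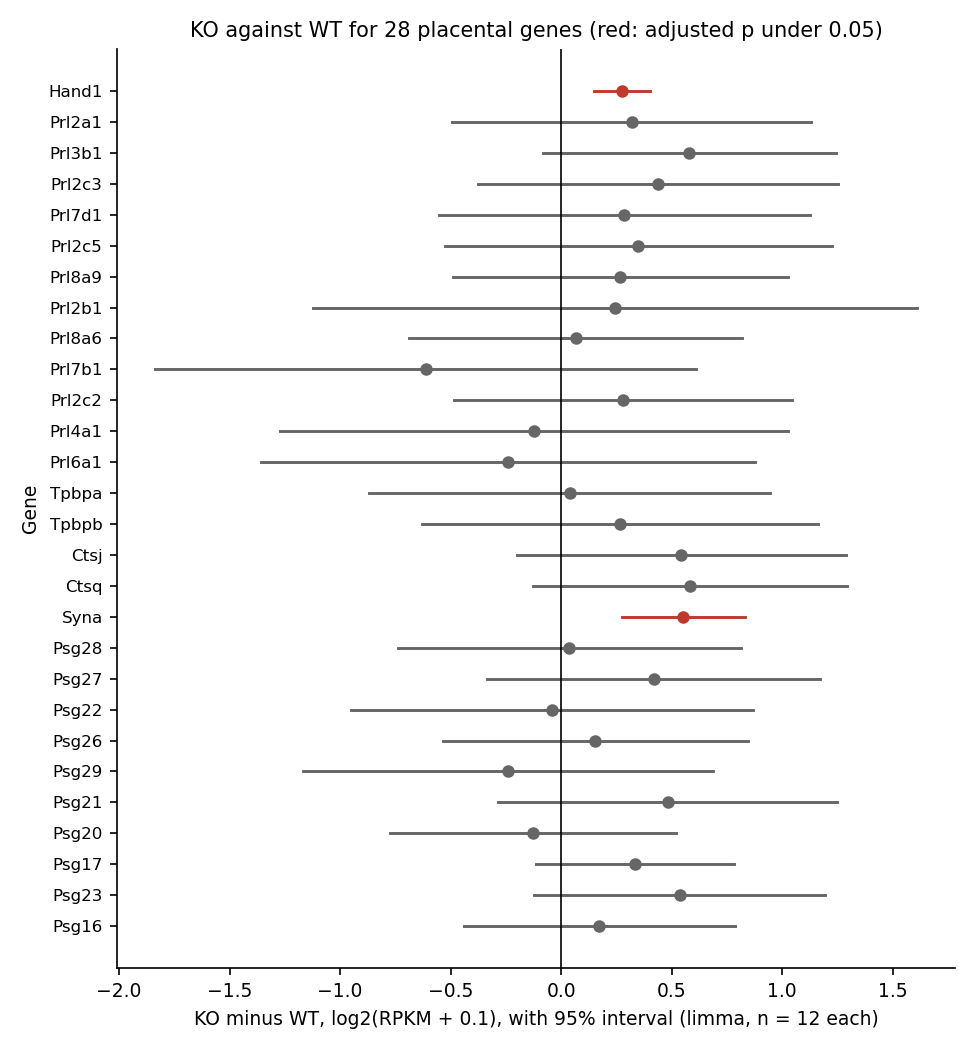
Difference KO minus WT in log2(RPKM + 0.1) for the 28 members (points) with 95% intervals (lines) from limma on 12 libraries each, red where the adjusted p is under 0.05. Hand1 and Syna have the short intervals above 0, while the intervals of the other 26 genes cross 0.

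The time course asks whether these genes cycle with a 24 h period. With a cosine and sine of 24 h and a linear trend for each genotype, 0 of 28 members passed an adjusted p of 0.05 in WT (lowest limma adjusted p 0.422, background 0.0397% of genes) and 0 of 28 in KO (lowest 0.614, background 0.0794%). At an unadjusted p under 0.05, 13 of 28 members were counted in WT, where the background is 8.23%, and 0 of 28 in KO, where it is 8.39%. Of the 13, 8 were PSG genes, 3 prolactin-family genes (Prl2a1, Prl8a6 and Prl8a9) and 2 the Tpbp genes. The WT count fell to 3 without the library of WT at 40 h, and it lay between 9 and 19 without any other library. The KO count rose to 6 without KO at 44 h. The members are not independent of each other, since they share their high and low libraries.

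The fitted WT peaks of these 13 genes fell between 14.7 and 17.7 h, the hours near the high libraries of 16 and 40 h. Tpbpb had the largest WT amplitude among them, 1.54 on the log2 scale (limma adjusted p = 0.431), against 0.48 in KO. The difference in rhythm between genotypes was itself tested and no member passed, with 0 of 28 at an adjusted p of 0.05 (background 0.0%) and 0 of 28 at an unadjusted p under 0.05 (background 4.93%). For Tpbpb the unadjusted limma p of the difference was 0.132. Each time of day was sampled by 2 libraries per genotype, which limits what a rhythm can rest on.

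Levels also drifted over the time course in KO. Psg23 and Psg21 passed the test of the linear trend there, both rising, which is 2 of 28 members where 3.14% of all genes passed and 1.77% passed with a rise. Psg23 had 0.0673 RPKM in KO at 12 h, 0.0505 at 16 h and 0.203 at 20 h. It then had 0.145, 0.105 and 0.0640 at 24, 28 and 32 h, 0.395, 0.368 and 0.215 at 36, 40 and 44 h, and 0.934, 0.426 and 0.993 at 48, 52 and 56 h. The libraries from 36 h on were thus all above those before, by little at 44 h. The slope was 1.46 log2 units per 24 h (SE 0.29, limma adjusted p = 0.00821). Psg23 was above 0.5 RPM only in KO, with 0.718 RPM there and 0.350 in WT, so the group with the rise brought it into the test, and with no filter its limma adjusted p was 0.0168.

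Psg21, its neighbour with a like upstream window, ran in KO from 0.213 RPKM at 28 h through a median of 0.560 to 2.40 at 48 h. Its 3 highest KO libraries were those of 48, 52 and 56 h. The slope was 1.42 log2 units per 24 h (SE 0.36, limma adjusted p = 0.0369). In WT, where Psg23 ran from 0.0160 through a median of 0.135 to 0.406 RPKM and Psg21 from 0.0972 through 0.483 to 1.82, the slopes were 0.61 (limma adjusted p = 0.31) and 0.99 (0.165). The difference in slope, KO minus WT, did not pass an adjusted p of 0.05, with 0.85 (SE 0.41, unadjusted limma p = 0.0519) for Psg23 and 0.43 (SE 0.51) for Psg21, and no member passed this test (background 0.0%) or had an unadjusted p under 0.05 (background 6.5%). The Psg23 call was lost without KO at 56 h (adjusted p = 0.0538), and the Psg21 call was lost when any single KO library other than that of 36 or 44 h was left out, with adjusted p from 0.0507 to 0.117. The mean number of fragments per KO library was 13.5 for Psg23 and 33.4 for Psg21, and 15.3% and 17.9% of their windows of 101 bases are shared, in part with each other.

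**Figure D5:**
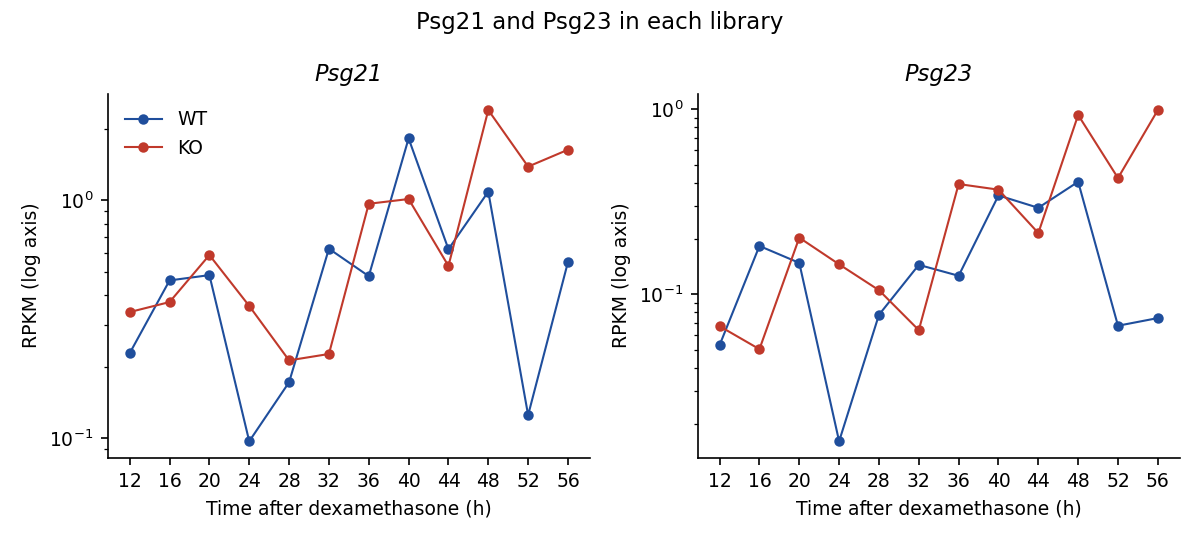
RPKM of Psg21 and Psg23 (vertical log axes) in each library against hours after dexamethasone, WT in blue and KO in red. The KO points are highest from 48 h on, at 0.993 for Psg23 at 56 h, while WT falls back at 52 h.

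The slope in KO was positive for 28 of 28 members and for 6939 of all 15112 genes. Its median was 0.94 log2 units per 24 h over the members and -0.01 over all genes. Without cosine and sine it was positive for 27 of 28, with a median of 0.63. In the main fit 9 of 28 had an unadjusted p under 0.05, where 17.1% of all genes did. That count lay between 4 and 22 when single libraries were left out, with 22 without KO at 44 h. In WT the slopes were positive for 28 of 28 with a median of 0.31, and for 8056 of all 15112 genes. When the cosine and sine were left out of the model, they were positive for only 6 of 28, with a median of -0.14. No member passed in WT, where 2.89% of all genes did.

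Genes near these families in function or position were counted from fixed lists, for which the background is the 26.3% of all genes that passed, 11.5% higher and 14.7% lower in KO. Of 6 other placental cathepsins, which lie in the same family as Ctsj and Ctsq, 2 were tested and 1 passed. Ctsr rose from 2.09 ± 0.869 RPKM in WT to 3.83 ± 1.55 in KO, a log2 difference of 0.84 (SE 0.23, limma adjusted p = 0.00779), with KO above WT at 10 of 12 hours. Cts6 had 0.248 ± 0.252 and 0.449 ± 0.514 RPKM and did not pass. Cts3, Cts7, Cts8 and Ctsm were near 0.

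Factors known from trophoblast stem cells were all above the 0.5 RPM threshold in WT or KO. Of 9 tested (Cdx2, Eomes, Elf5, Esrrb, Gata3, Tfap2c, Tead4, Id2 and Fgfr2), 0 passed. Id2 and Fgfr2 had the highest levels, with 16.2 ± 2.49 and 4.80 ± 0.451 RPKM in WT and 17.5 ± 2.10 and 5.28 ± 0.522 in KO. Cdx2, which is known to specify the trophectoderm, had 1.21 ± 0.446 and 0.848 ± 0.137 (limma adjusted p = 0.0579). The lowest were Eomes, with 0.231 ± 0.188 RPKM in WT and 0.252 ± 0.169 in KO, and Esrrb, with 0.150 ± 0.0918 and 0.131 ± 0.0547. Of 8 labyrinth and syncytiotrophoblast genes, 2 passed, a share near the background of 26.3%, and both were higher in KO: Slc16a3, a lactate transporter that many tissues use, by 0.47 and Cebpa by 0.14 on the log2 scale.

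The receptor side of the prolactin family was measured as well. The receptor Prlr was near the threshold, with 0.140 ± 0.0147 RPKM in WT and 0.152 ± 0.0247 in KO, and pituitary Prl and Gh were at or near 0. Of the 7 genes of this pathway tested, 0 were higher and 3 lower in KO, where 14.7% of all genes were lower: the growth hormone receptor Ghr by -0.23, Stat5b, which carries the signal to the nucleus, by -0.18, and Cish, a feedback inhibitor induced by STAT5, by -0.33 on the log2 scale. Among the CEACAM genes, the relatives of PSG, and the PSG receptor Cd9, 6 of 12 were tested and Cd9 passed, with a log2 difference of 0.25. The most abundant placental CEACAM, Ceacam13, had 4.61 ± 5.27 RPKM in WT and 2.998 ± 1.85 in KO and was highest in WT at 40 h, which was also the highest WT library for 7 of the 10 PSG genes tested.

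Markers of other cell types gave a mixed picture beside these values. Of 4 smooth muscle markers 3 were higher in KO, and of 5 mesenchyme markers 3 were higher and 1 lower, where 11.5% of all genes were higher and 14.7% lower. None of the 5 yolk sac endoderm markers passed. Whether a different makeup of the pools bears on the Hand1 and Syna values was not tested.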

How the data were processed

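RNA-seq of 12 WT and 12 KO time points was used, with 1 library each, grouped by the labels' titles. The labels name bcl2fastq, Trimmomatic 0.36, STAR 2.5.4b, SAMtools and HOMER. The authors trimmed the 101-base paired reads, mapped them to GRCm38 (mm10), dropped alignments whose mapping quality was under 10, counted fragments on the exons of UCSC genes and deposited the result as RPKM, scaled to exonic length and library total. Reads that map equally well to near-identical genes are lost by that filter.

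RPKM was turned into RPM with the deposited lengths, and into fragments to describe depth only: multiples of 0.5 fragment (within 0.001) were recovered for 100% of values. Genes with a mean above 0.5 RPM in WT or KO (15112) were log-transformed as log2(RPKM + 0.1) and fitted in R 4.3.3 by limma 3.58.1, with a trended prior variance. Genotype was fitted alone, and 24 h cosine, sine and a linear trend were fitted for each genotype. P-values are two-sided and adjusted over all 15112 genes by Benjamini-Hochberg. The pseudocount understates changes of low genes. The fits were tested on simulated data holding known changes. Upstream windows, shared windows of 101 bases (GENCODE transcripts of the same build) and summaries came from Python 3.11.15 (pandas 2.3.3, scipy 1.17.1, numpy 2.4.6), and matplotlib 3.10.9 drew the figures.

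The members and lists were chosen with earlier results of these data known. Named are the members above 0.5 RPM, the highest of the others and those that passed a test, and from each list the genes that passed or had the highest level. The list of spongiotrophoblast and giant-cell genes is not reported here. Same-numbered libraries of the genotypes share only a time point. Alternatives were the threshold and unit, the pseudocount, filter, scaling and model terms, the time point as a block, a permutation test, and, chosen after seeing the data, each library left out in turn. Counting intervals cover counting error only, and no test for counts was used, because the values are normalized.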

Additional observations from a re-analysis of the deposited data

How the results depend on the processing

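Of the 47 member rows, 28 were above 0.5 RPM, 22 above 1 RPM, 37 above 0.1 RPM and 23 above 0.5 RPKM. The 2 calls between genotypes, Hand1 and Syna, were both kept with a pseudocount of 1 or 0.01, without the filter, with quantile normalization and with trend and rhythm terms. With a filter at 1 RPKM the count was 1, because Syna was then not tested. With each library left out in turn the count stayed at 2, the log2 difference ran from 0.25 to 0.31 for Hand1 and from 0.49 to 0.60 for Syna. A permutation test of mean RPKM gave p = 0.00071 for Hand1 and p = 0.00051 for Syna (100000 permutations, two-sided, unadjusted).

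With the time point as a replicate block the count was again 2, and no member passed for the rhythm difference. Libraries of the same time point had a mean correlation of 0.208 in their deviations (range -0.210 to 0.388, above 0.1 for 8 of 12). For libraries of different time points the mean was -0.0189 (above 0.1 for 44 of 132). The main fit did not take the time points as pairs, and the block was the alternative that did.

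The 2 rising genes in KO became 1 without cosine and sine (Psg21 adjusted p = 0.0716) and 1 without the filter (0.0678), and 0 to 3 with a library left out, Psg16 being added without KO at 44 h. Slopes over these fits ran from 1.26 to 1.71 for Psg23 and from 1.25 to 1.74 for Psg21.

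The rhythm counts at an adjusted p of 0.05 were 0 under each alternative. Directions turned only for members that did not pass. The difference in mean RPKM, KO minus WT, was -0.160 for Prl2b1, -0.515 for Prl8a6, -2.27 for Prl2a1, -0.554 for Tpbpb, -4.73 for Tpbpa, -0.222 for Psg28 and -0.0151 for Psg26, where the mean of log2 values was positive. Psg28 turned to -0.0126 with a pseudocount of 1, and Psg22 to 0.0101 with quantile normalization. The cause was not tested.

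With 1 library per time point, few embryoid bodies per pool and large differences between pools, the intervals of placental genes other than Hand1 and Syna were wide. PSG genes and Syna rest on few fragments.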
